A study of Homo sapiens with 17 samples.

Results

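The genes described here are 10 genes of bone morphogenetic protein (BMP) signalling, out of 60664 genes measured in SF8628 cells. They are the inhibitor of DNA binding genes *ID1*, *ID2*, *ID3* and *ID4*, the receptor genes *ACVR1*, *BMPR1A* and *BMPR2*, the inhibitory SMAD genes *SMAD6* and *SMAD7*, and the ligand gene *BMP4*. The members were chosen by symbol and matched to Ensembl identifiers, and all 10 were found and were among the 15599 genes tested. They were proposed with earlier results for AZD5153 against DMSO known. That comparison is therefore given as a description, with values, fold changes and the call of the fit across all genes, and without p-values.

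SF8628 is an established cell line of H3K27-altered diffuse midline glioma (DMG), a childhood tumour of midline structures of the central nervous system. Per the paper it carries the H3.3K27M histone mutation, and it was grown as a monolayer in medium with serum. Cells received DMSO as vehicle or 1 μM AZD5153, a small molecule that blocks the bromodomains of the bromo- and extraterminal domain (BET) proteins, and were taken after 24 or 48 hours. RNA-Seq covered 12 libraries from this single line, 3 for each treatment and time. The labels do not say whether the libraries came from separate cultures, so p-values measure the spread between these libraries only. Libraries from JQ1-treated cells and the H3K27ac profiles of the study were not analysed here.

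BMPs are secreted ligands that bring together type I receptors, such as ACVR1 and BMPR1A, and type II receptors, such as BMPR2, on the cell surface. The activated receptors phosphorylate SMAD1, SMAD5 and SMAD9, which join SMAD4 and enter the nucleus, and the ID genes are among the best known genes they switch on. ID proteins are helix-loop-helix proteins that lack a DNA-binding region. They hold E proteins such as TCF3, TCF4 and TCF12 in complexes that cannot bind DNA, and so restrain the basic helix-loop-helix (bHLH) factors that drive neural differentiation. SMAD6 and SMAD7 are induced by the pathway and feed back to block it. In midline glioma, ACVR1 is a known target of activating mutations. Whether SF8628 carries such a mutation was not examined here.

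Libraries held 15759148 to 27335220 reads on genes (median 20737337). The values are normalized counts, that is reads divided by a size factor per library, and changes are given on the scale log2(normalized count + 1), on which low genes appear to change less than they do. A gene is said here to have risen or fallen where its Benjamini-Hochberg adjusted p-value in the limma fit of all 4 groups was under 0.05. Replicate 1 of DMSO at 24 hours stood apart from its group. Its chi-square per degree of freedom was 15.2 and 22.9 against replicates 2 and 3, which differed from each other by 4.67. *HEXIM1*, which BET inhibitors are known to raise, rose by 2.17 at 24 hours and by 2.05 at 48 hours on the log2 scale. *MYC*, which they lower in many cells, also rose, by 1.47 and 0.82. *OLIG2*, a lineage factor of many midline gliomas, was listed at 0 in every library and *PDGFRA* had group means of 1.54 to 4.42 normalized counts, while *SOX2*, *NES*, *VIM* and *CD44* were present. With AZD5153, *NES* fell (log2 -1.43 at 24 hours and -1.87 at 48 hours), *SOX2* fell (-0.60 and -0.30) and *CD44* rose (0.17 and 0.53), and *VIM* fell at 24 hours (-0.28) and was not called at 48 hours (0.010). *GFAP* (-0.43 and -0.27) and *S100B* (0.14 and -0.30) were called at neither time. The 8 markers of neural and glial cells summed to 28341 to 37658 normalized counts in DMSO and 26329 to 28297 in AZD5153 at 24 hours, and to 22187 to 22427 and 22056 to 23642 at 48 hours. These sums were mostly *VIM* and *CD44*, so they say little of the other markers. Of 8 markers of myeloid cells, 2 passed the minimum mean of 10. *CSF1R* fell at both times (-2.73 and -2.49), *CD14* was called at neither (0.63 and -0.19), and *AIF1* and *TYROBP* were at 0 in every library. The summed level of the 8 markers, 195 to 229.6 normalized counts in DMSO and 34.6 to 59.8 in AZD5153 at 48 hours, was mostly *CSF1R*. Of 6 markers of epithelium 4 were tested. *KRT18* rose at both times (0.32 and 0.57), *CLDN4* rose at 24 hours (0.75) and was not called at 48 hours (0.21), *KRT19* fell at 24 hours (-1.32) and was not called at 48 hours (0.35), and *KRT8* was not called at 24 hours (-0.15) and fell at 48 hours (-0.38). The 6 markers summed to 1249 to 1460 in DMSO and 1589 to 1767 in AZD5153 at 24 hours, and 1732 to 1905 and 2140.1 to 2407 at 48 hours. The defining marker *EPCAM* averaged 13.3 and 15.6 normalized counts in DMSO and 3.89 and 2.70 in AZD5153, and *CDH1* was at 0 in all libraries except replicate 2 of AZD5153 at 48 hours (44.5). The part of these markers in the results below was not tested. In bulk RNA, fewer cells of a type and less RNA per cell cannot be told apart.

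All 4 ID genes rose with AZD5153 at both times, and they had the 4 largest increases among the 10 genes. *ID4* rose 20.1-fold at 24 hours and 32.3-fold at 48 hours, *ID1* rose 11.1-fold and 10.7-fold, and *ID2* rose 8.84-fold and 11.5-fold. *ID3* rose 6.30-fold at 24 hours and 2.67-fold at 48 hours. In each of these 8 comparisons, all AZD5153 libraries lay above all DMSO libraries of the same time. Across all genes tested, 68.5% were called at 24 hours (33.9% higher and 34.6% lower) and 67.0% at 48 hours (33.1% higher and 33.9% lower), with a median log2 fold change of 0.00 at each time. Of the 10 genes, 9 were called at 24 hours (6 higher and 3 lower, median 0.57) and 7 at 48 hours (5 higher and 2 lower, median 0.20). The libraries of the treatments did not overlap for 9 of the 10 genes at 24 hours and for 8 at 48 hours, against 68.8% and 74.7% of all genes tested. Since the genes were chosen with this contrast known, nothing is read from these counts.

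*ID1* (ENSG00000125968, chr20:31605283-31606515 on GRCh38) is the ID gene most often used as a readout of BMP signalling. Its normalized counts were 720.2, 971 and 1069.8 in DMSO and 10565, 10396 and 9228 with AZD5153 at 24 hours. At 48 hours they were 529, 500.0 and 439 in DMSO and 5190.1, 5169.6 and 5319 in AZD5153. Both treatments stood lower at 48 than at 24 hours, and the lowest AZD5153 library was above the highest DMSO library of either time. On the log2 scale the change was 3.47 ± 0.11 (SE) at 24 hours and 3.42 ± 0.11 at 48 hours. The difference between these effects was -0.048 ± 0.16 (limma, adjusted p = 0.85), with an interval of -0.38 to 0.28 at 95%.

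*ID2* (ENSG00000115738, chr2:8678845-8684461) binds E proteins like *ID1*. It gave 477, 386 and 427 in DMSO and 3868, 3777 and 3738 with AZD5153 at 24 hours. At 48 hours its counts were 215, 246 and 180.3 in DMSO and 2496, 2396 and 2440.2 in AZD5153. The DMSO libraries of 48 hours were the lowest of the 12. Its log2 fold change was 3.14 ± 0.10 at 24 hours and 3.52 ± 0.10 at 48 hours, a difference of 0.38 ± 0.14 that did not pass the threshold (limma, adjusted p = 0.058). The fit that left out replicate 2 of DMSO at 24 hours gave 0.45 (adjusted p = 0.032 by limma), and the one that left out replicate 2 of DMSO at 48 hours gave 0.48 (adjusted p = 0.015 by limma). Without replicate 3 of DMSO at 48 hours it was 0.26 (adjusted p = 0.14 by limma). Among all 22 alternatives run the difference was called in 4, and its highest value was 0.51, with quantile normalization. A lncRNA on the opposite strand, *ID2-AS1*, overlaps *ID2* and averaged 61.8 normalized counts. The use of strand in the counting is not given in the sources used here, so reads of the pair could not be told apart.

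*ID3* (ENSG00000117318, minus strand, chr1:23557926-23559501) was the ID gene whose response changed most clearly with time. It gave 320.1, 455 and 448 in DMSO and 2636, 2734 and 2280.3 with AZD5153 at 24 hours. At 48 hours its counts were 539.5, 583 and 556 in DMSO and 1442, 1529 and 1519.6 in AZD5153. In DMSO the 48-hour libraries were all above the 24-hour libraries, while in AZD5153 they were all below, so the groups drew closer from both sides. The log2 scale gave 2.66 ± 0.11 at the earlier and 1.42 ± 0.11 at the later time. The effect at 48 hours was smaller by 2.36-fold, a log2 difference of -1.24 ± 0.16 (limma, adjusted p = 4.5e-05). This difference stayed between -1.33 and -1.07 when each library was left out in turn.

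*ID4* (ENSG00000172201, chr6:19837370-19842197) had the fewest reads of the family in DMSO and the largest fold change. Its counts were 68.8, 61.2 and 71.3 in DMSO and 1386, 1333 and 1368 with AZD5153 at 24 hours. At 48 hours they were 36.9, 11.5 and 25.9 in DMSO and 771, 765 and 727 in AZD5153. The AZD5153 libraries were close together at each time, and the DMSO libraries of 48 hours were spread over a range from 11.5 to 36.9. The log2 fold change was 4.33 ± 0.26 at 24 hours and 5.01 ± 0.26 at 48 hours. The difference between the times was 0.69 ± 0.37 (limma, adjusted p = 0.19). It passed the threshold in the fit that left out replicate 1 of DMSO at 48 hours, at 1.04 (adjusted p = 0.026 by limma), while without replicate 2 of that group it was 0.24 (adjusted p = 0.41 by limma). A lncRNA on the opposite strand, *LNC-LBCS*, overlaps *ID4* and averaged 21.3 normalized counts over all libraries. Its level in each group was not compared with that of *ID4*. As for *ID2*, reads of the pair could not be told apart.

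**Figure D1:**
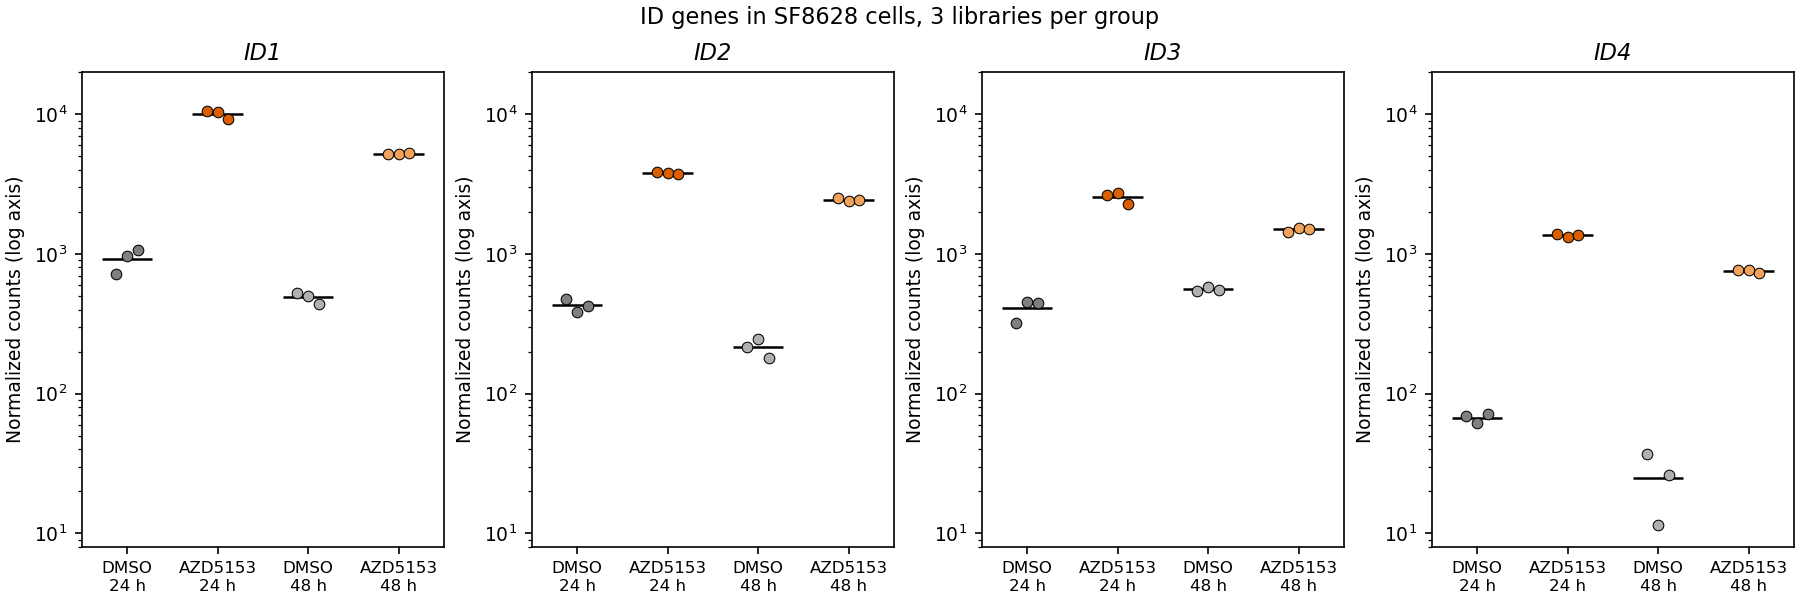
Normalized counts of *ID1*, *ID2*, *ID3* and *ID4* (vertical log axis) in the 12 libraries, grouped by treatment and time; each point is 1 library and the horizontal line is the mean of 3. In every panel the AZD5153 libraries lie above the DMSO libraries of the same time, and for *ID1*, *ID2* and *ID4* both treatments are lower at 48 than at 24 hours.

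Upstream sequences of the ID genes are shown because all 4 genes rose with AZD5153 and because a BMP response element has been described in ID genes. The element was searched as a GC-rich SMAD site (GGCGNC or GACGNC) followed after any 5 bases by a *SMAD4* site (GTCT), on both strands of the 2000 bases before each GENCODE gene start (GRCh38). These letters were present before 3 of the 10 genes, *ID1*, *ID2* and *ID3*, and before 233 of 19941 protein-coding genes (1.17%). Since the element was searched because it had been described in ID genes, nothing is read from these counts. In *ID1* the match is at chr20:31604378-31604392, 905 bases before the start, where no gene is annotated. In *ID2* it is at chr2:8677093-8677107 in the reverse orientation, 1752 bases before the start of the longest gene model and within the lncRNA *ID2-AS1*. In *ID3*, on the minus strand, it is at chr1:23559993-23560007, 506 bases before the start, where no gene is annotated. Each match is printed below in capitals with 40 bases on either side, on the strand of its gene. A match is a description of the letters and not a bound site.
ID1: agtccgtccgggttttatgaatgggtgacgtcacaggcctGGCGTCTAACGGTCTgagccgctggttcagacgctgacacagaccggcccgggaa
ID2: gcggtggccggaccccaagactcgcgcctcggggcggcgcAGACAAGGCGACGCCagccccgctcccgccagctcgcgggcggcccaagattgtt
ID3: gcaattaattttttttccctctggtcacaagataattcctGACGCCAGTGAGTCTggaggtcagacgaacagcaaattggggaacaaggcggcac

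*ID4* had no such match in its window. A second motif, GGCGCC, was present before 7 of the 10 genes (*ID1*, *ID4*, *ACVR1*, *BMPR1A*, *BMPR2*, *SMAD6* and *SMAD7*) and before 41.2% of protein-coding genes. The 250 bases before the RefSeq start (GRCh38.p14) are printed for *ID1*, *ID3* and *ID4*, as the core promoters of genes that all rose with AZD5153. All 10 genes had a RefSeq promoter. Capitals mark 3 core promoter motifs on either strand, the TATA box as TATAAA (present in 10.7% of 35116 promoters of the same length), the CCAAT box (32.0%) and the GC box as GGGCGG (42.6%). These shares count the letters anywhere in the 250 bases, not at a set distance from the start. In *ID1* the TATAAA letters lie 31 bases before the start and overlap the same letters read on the other strand, with 1 CCAAT and 2 GGGCGG. *ID4* has TATAAA 29 bases before the start, 1 CCAAT and 6 GGGCGG. *ID3* has none of these exact letters. *ID2*, whose promoter overlaps an exon of a longer gene model and is not printed, has 3 CCAAT and 2 GGGCGG. Near matches to TATAAA were not counted. They include tataag close to the start of *ID3* and gataaa close to that of *ID2*. The lack of an exact match is thus not the lack of a TATA-like sequence. The GC content of the 4 promoters was 66.0% for *ID1*, 69.2% for *ID2*, 62.0% for *ID3* and 78.8% for *ID4*. The positions are chr20:31605039-31605288 for *ID1*, chr1:23559502-23559751 for *ID3* and chr6:19837120-19837369 for *ID4*.
ID1: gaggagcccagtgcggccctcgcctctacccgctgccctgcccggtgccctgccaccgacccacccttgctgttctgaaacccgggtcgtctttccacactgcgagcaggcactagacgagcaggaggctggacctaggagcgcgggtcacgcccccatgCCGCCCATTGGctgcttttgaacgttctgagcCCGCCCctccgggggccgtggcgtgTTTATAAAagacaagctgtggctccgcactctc
ID3: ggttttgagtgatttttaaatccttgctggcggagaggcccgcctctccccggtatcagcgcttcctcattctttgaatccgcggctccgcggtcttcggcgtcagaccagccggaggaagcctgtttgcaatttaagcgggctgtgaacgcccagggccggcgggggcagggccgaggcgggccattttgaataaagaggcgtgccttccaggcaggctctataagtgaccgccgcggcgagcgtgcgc
ID4: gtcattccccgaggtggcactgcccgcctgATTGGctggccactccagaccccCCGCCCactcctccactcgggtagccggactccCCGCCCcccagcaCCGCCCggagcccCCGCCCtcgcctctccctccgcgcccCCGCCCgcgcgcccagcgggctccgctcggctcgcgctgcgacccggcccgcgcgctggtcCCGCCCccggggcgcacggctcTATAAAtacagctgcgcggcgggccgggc

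Levels of different genes were compared per length, as TPM, the reads of a gene per base of its exons scaled to the same total in every library. Together the 4 ID genes gave 266 to 341 TPM in DMSO and 2394 to 2636 TPM in AZD5153 at 24 hours. At 48 hours they gave 213 to 239 TPM in DMSO and 1357 to 1388 TPM in AZD5153. *ID1* was the highest of the family in 3 groups, with 188 ± 33.3 TPM (SD, n = 3) in DMSO at 24 hours and 1739.6 ± 104 and 888 ± 14.6 TPM in AZD5153 at 24 and 48 hours. In DMSO at 48 hours *ID1* and *ID3* overlapped, at 92.8 to 112 and 94.2 to 102 TPM. *ID4* was the lowest in every group, from 1.67 ± 0.857 TPM in DMSO at 48 hours to 75.0 ± 2.04 TPM in AZD5153 at 24 hours.

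The makeup of the family moved less between the times in AZD5153 than in DMSO, a description that was not tested. In AZD5153, *ID1* made up 68.4% ± 0.597 (SD, n = 3) of the summed ID TPM at 24 hours and 64.8% ± 0.308 at 48 hours, and *ID3* made up 14.3% ± 0.533 and 15.3% ± 0.456. In DMSO, *ID1* made up 60.3% ± 3.29 at 24 hours and 45.4% ± 2.20 at 48 hours, while *ID3* went from 22.1% ± 1.52 to 42.9% ± 2.65. The share of *ID4* was 1.43% ± 0.257 and 0.737% ± 0.375 in DMSO, and 2.96% ± 0.212 and 2.98% ± 0.125 in AZD5153. *ID2* stood above *ID3* in AZD5153 at 48 hours, at 227 to 236 against 201 to 214 TPM, and overlapped it at 24 hours, at 361 to 370.5 against 330.2 to 386 TPM.

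**Figure D2:**
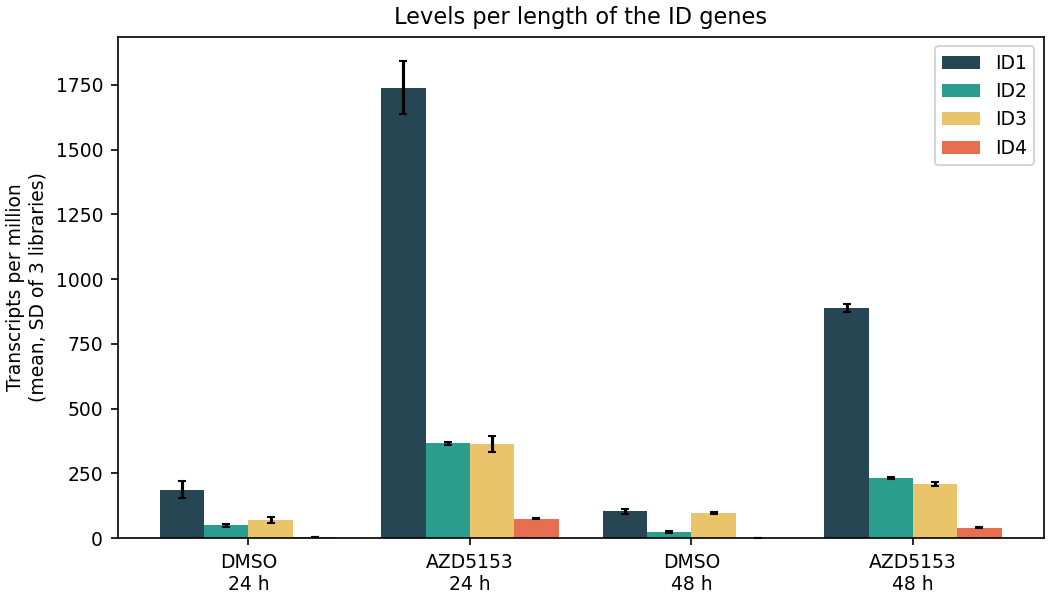
Levels of *ID1*, *ID2*, *ID3* and *ID4* in TPM (vertical axis from 0) in the 4 groups; bars are means and error bars the SD of 3 libraries. *ID1* is the tallest bar in every group, and in DMSO at 48 hours it and *ID3* overlap within their spread.

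Of the receptor genes, *ACVR1* fell, *BMPR2* rose, and *BMPR1A* fell at 24 hours with AZD5153. These changes were smaller than those of the ID genes. *ACVR1* (ENSG00000115170, minus strand, chr2:157736251-157876330), a type I receptor, gave 1366, 1342 and 1352 in DMSO and 1091, 1052 and 1032 with AZD5153 at 24 hours. The 48-hour counts were 1251, 1172 and 1175 in DMSO and 845, 867 and 798 in AZD5153. Every AZD5153 library was below every DMSO library, also across times. On the log2 scale *ACVR1* fell, with -0.36 ± 0.058 at 24 hours and -0.52 ± 0.058 at 48 hours, or 1.28-fold and 1.43-fold lower.

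*BMPR1A* (ENSG00000107779, chr10:86756596-86932825), the other type I receptor, gave 1457, 1186 and 1178 in DMSO and 1004, 976 and 1009 with AZD5153 at 24 hours. At 48 hours its counts were 1019.6, 1135 and 1170.5 in DMSO and 1011, 1002 and 1009 in AZD5153. The groups did not overlap at either time, although at 48 hours the lowest DMSO library was close to the highest AZD5153 library. The log2 fold change was -0.35 ± 0.080 at 24 hours, a fall, and -0.14 ± 0.080 at 48 hours, which was not called (interval -0.30 to 0.034). The value at 48 hours was called with equal totals, at -0.31, and with no change in size in the fit of only the groups compared and in that without replicate 1 of DMSO at 24 hours. The difference between the times was 0.21 (limma, adjusted p = 0.19), and 0.11 without that library.

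*BMPR2* (ENSG00000204217, chr2:202376327-202567751), the type II receptor, gave 1646, 1656 and 1671 in DMSO and 2586, 2673 and 2916 with AZD5153 at 24 hours. At 48 hours it gave 1892, 1859.9 and 1869 in DMSO and 2523, 2716 and 2942 in AZD5153. Every AZD5153 library was above every DMSO library, and the AZD5153 libraries were more spread. The log2 fold change was 0.72 ± 0.061 at 24 hours and 0.54 ± 0.061 at 48 hours, or 1.64-fold and 1.45-fold higher. The effect at 48 hours minus that at 24 hours did not pass the threshold for the 3 receptors, with limma adjusted p-values of 0.17 for *ACVR1*, 0.19 for *BMPR1A* and 0.15 for *BMPR2*. The 95% intervals of these differences were -0.34 to 0.012, -0.028 to 0.45 and -0.36 to 0.0065 on the log2 scale. That of *BMPR2* was called in 1 of the 22 alternatives run, and its value was -0.28 with quantile normalization.

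Per length, the 3 receptor genes were at like levels in DMSO at 24 hours, with 34.0 to 35.8 TPM for *ACVR1*, 28.9 to 37.3 for *BMPR1A* and 33.0 to 33.9 for *BMPR2*. The ranges of *BMPR1A* overlapped both others there. In DMSO at 48 hours *BMPR2* stood above both type I receptors, with 38.9 to 39.5 TPM against 31.1 to 33.2 for *ACVR1* and 26.4 to 30.3 for *BMPR1A*. In AZD5153 *BMPR2* also stood above both, with 46.5 ± 3.53 TPM at 24 hours and 45.7 ± 3.60 TPM at 48 hours. *ACVR1* was above *BMPR1A* in AZD5153 at 24 hours (22.9 ± 0.503 against 21.1 ± 0.614 TPM) and below it at 48 hours (17.8 ± 0.742 against 20.9 ± 0.0754 TPM), in both cases without overlap.

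The inhibitory SMAD genes did not rise as the ID genes did. *SMAD7* fell at 48 hours, and *SMAD6* rose at 24 hours by a call that rested on single libraries. *SMAD7* (ENSG00000101665, minus strand, chr18:48919853-48950965), which blocks both BMP and TGF-beta receptors, gave 170.2, 256 and 262 in DMSO and 194, 202 and 182 with AZD5153 at 24 hours. The 48-hour libraries had 184, 241 and 214 in DMSO and 41.0, 31.5 and 56.5 in AZD5153. At 24 hours the groups overlapped, and at 48 hours the AZD5153 libraries were the lowest of the 12. *SMAD7* had a log2 fold change of -0.22 ± 0.20 at 24 hours, which was not called (interval -0.66 to 0.21), and -2.31 ± 0.20 at 48 hours, 4.96-fold lower. The difference between the times was -2.09 ± 0.29 (limma, adjusted p = 0.00011), and it lay between -2.30 and -1.89 when each library was left out. Without replicate 1 of DMSO at 24 hours, which had the lowest *SMAD7* of its group, the value at 24 hours was -0.43 and was called.

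*SMAD6* (ENSG00000137834, chr15:66702236-66782849), which acts mainly on BMP receptors and *SMAD1*, gave 473, 813 and 848 in DMSO and 952, 937 and 885 with AZD5153 at 24 hours. Its 48-hour counts were 549, 475 and 524 in DMSO and 459.6, 480.2 and 442 in AZD5153. Replicate 1 of DMSO at 24 hours was the only low library of its group, and the groups overlapped at 48 hours. The log2 fold change of 0.42 ± 0.16 at 24 hours was called, but without that library it was 0.15 and was not. The call was also lost without replicate 1 (0.40) or replicate 2 (0.41) of AZD5153 at 24 hours. At 48 hours the log2 fold change was -0.16 ± 0.16, not called, and without replicate 1 of DMSO at 24 hours it was called with the same value. The difference between the times was -0.59 ± 0.22 (limma, adjusted p = 0.065). It passed the threshold without replicate 1 (-0.32), replicate 2 (-0.71) or replicate 3 (-0.74) of DMSO at 24 hours.

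*BMP4* (ENSG00000125378, minus strand, chr14:53949736-53958761) was the gene with the fewest reads of the 10, from 3 to 61 per library. This ligand gave 11.3, 43.4 and 35.7 in DMSO and 4.02, 9.21 and 7.34 with AZD5153 at 24 hours. At 48 hours it gave 30.6, 25.7 and 54.0 in DMSO and 31.0, 13.0 and 5.13 in AZD5153. The groups did not overlap at 24 hours, and at 48 hours replicate 1 of AZD5153 lay within the DMSO range. Its log2 fold change was -1.85 ± 0.58 at 24 hours, a fall, and -1.36 ± 0.58 at 48 hours, which was not called (interval -2.60 to -0.12). With a pseudocount of 10 in place of 1 the values were -1.16 and -0.90, both called. Without replicate 2 of DMSO at 24 hours the fall was -1.49 and was not called. At 48 hours the value was called without replicate 1 of AZD5153 at 48 hours, at -1.95, and without replicate 1 or 3 of DMSO at 24 hours. Without replicate 3 of AZD5153 at 48 hours it was -0.76 and was not called. The difference between the times was 0.49 ± 0.83 (limma, adjusted p = 0.71, interval -1.27 to 2.25), so a change of the effect with time could not be shown.

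**Figure D3:**
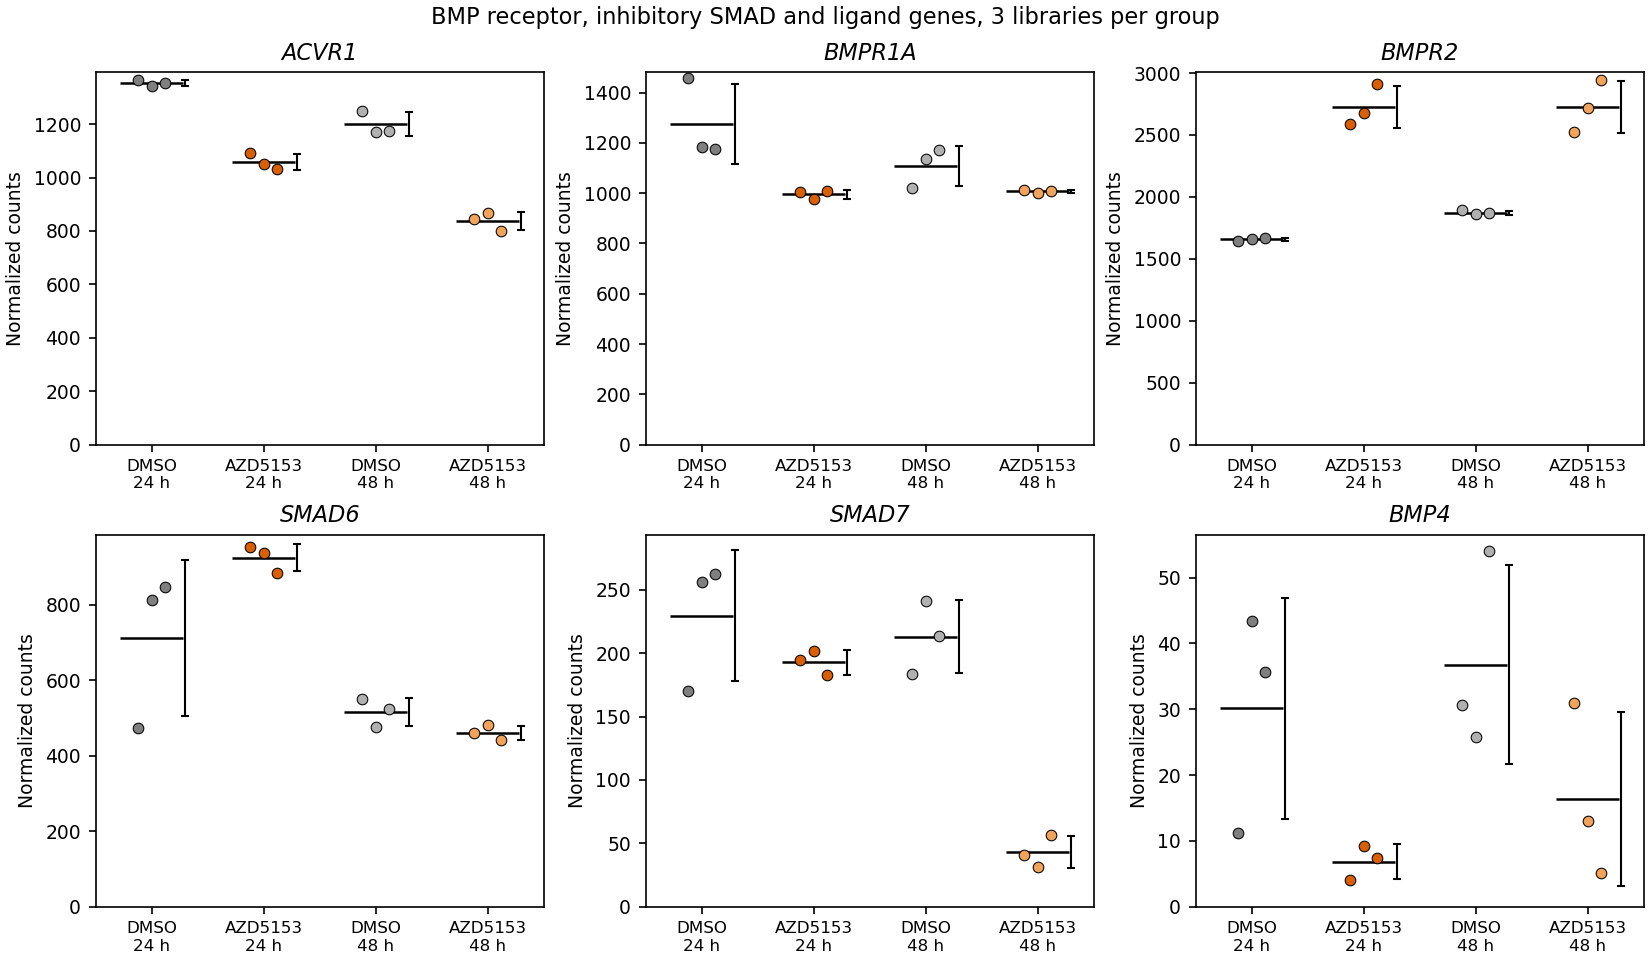
Normalized counts (vertical axes from 0) of *ACVR1*, *BMPR1A*, *BMPR2*, *SMAD6*, *SMAD7* and *BMP4* in the 12 libraries by treatment and time; points are libraries, horizontal lines means and error bars the SD of 3 libraries. *BMPR2* is higher and *ACVR1* lower with AZD5153 at both times, and *SMAD7* in AZD5153 at 48 hours lies between 31.5 and 56.5.

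Set side by side, the effects of AZD5153 at 24 and 48 hours differed for 2 of the 10 genes, *ID3* and *SMAD7*, both in the direction of a lower value at 48 hours. Of all genes tested, 24.5% had an effect that differed between the times, 14.4% toward a higher and 10.1% toward a lower value. The remaining 8 genes did not pass the threshold, and their differences ranged from -0.59 for *SMAD6* to 0.69 for *ID4*. Without replicate 2 of DMSO at 24 hours, and also with quantile normalization, 4 of the 10 genes passed. With DESeq2 on the recovered reads the number was higher still.

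**Figure D4:**
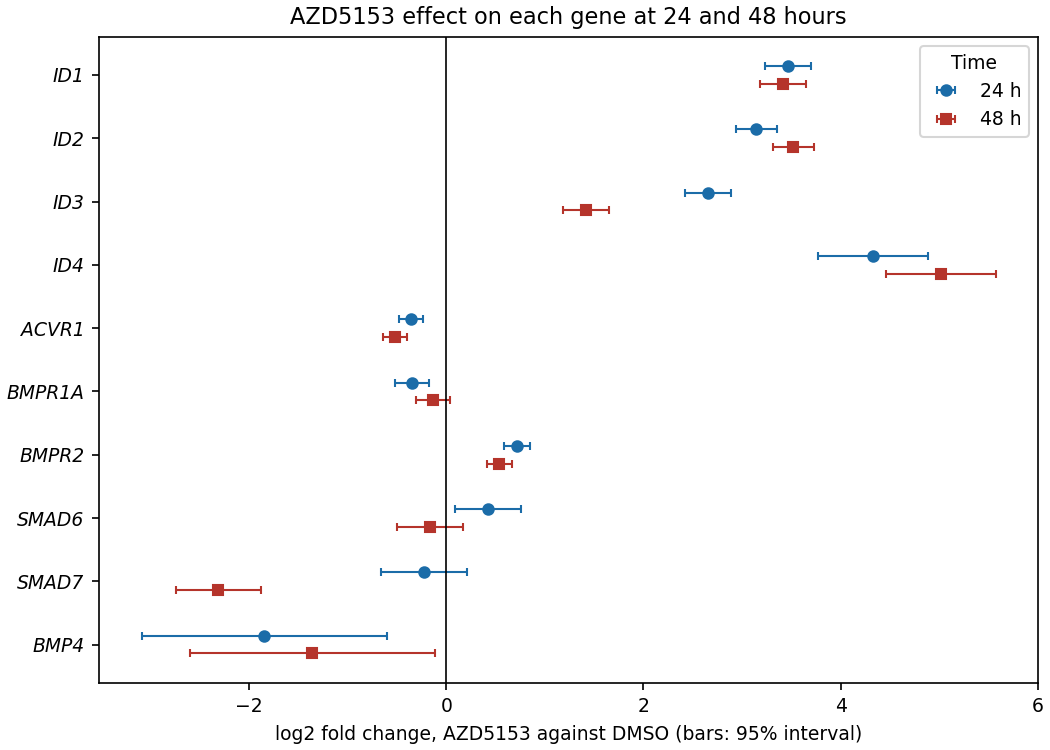
Log2 fold change of AZD5153 against DMSO (horizontal axis) for each of the 10 genes at 24 hours (circles) and 48 hours (squares); bars are 95% intervals from the limma fit. The 4 ID genes lie to the right of 0 at both times, and the intervals of the 2 times are apart for *ID3* and *SMAD7*.

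The genes were also compared between 24 and 48 hours within each treatment. In this balanced design these comparisons do not depend on the mean AZD5153 effect over both times. They share groups with the AZD5153 effect at each time, as does the difference between those effects. The choice of genes with earlier results known may therefore bear on their p-values, which was not tested. In DMSO, 7 of the 10 genes were called between 24 and 48 hours (2 higher and 5 lower), against 35.7% of all genes tested (16.4% higher and 19.3% lower), and the libraries of the times did not overlap for 7 (46.5% of all genes). *ID1* fell by 1.86-fold (log2 -0.89 ± 0.11, adjusted p = 2.1e-05 by limma), *ID2* by 2.01-fold (log2 -1.01 ± 0.10, adjusted p = 2.0e-06 by limma) and *ID4* by 2.91-fold (log2 -1.54 ± 0.26, adjusted p = 0.00032 by limma). *ID3* went the other way and rose 1.39-fold (log2 0.47 ± 0.11, adjusted p = 0.0033 by limma), and by a log2 value of 0.31 without replicate 1 of DMSO at 24 hours. Smaller changes passed for *ACVR1* (log2 -0.18 ± 0.058, adjusted p = 0.029), *BMPR2* (0.18 ± 0.061, adjusted p = 0.033) and *SMAD6* (-0.42 ± 0.16, adjusted p = 0.048), all by limma. *BMPR1A* (-0.37 to -0.026), *SMAD7* (-0.52 to 0.34) and *BMP4* (-0.84 to 1.65) were not called, with the 95% intervals before adjustment in brackets. That of *BMPR1A* leaves out 0, and its value of -0.20 was called without replicate 2 (-0.24) or 3 (-0.25) of DMSO at 24 hours and was -0.095 without replicate 1. The call of *SMAD6* was lost in 11 of the 12 fits that left out a library, with values from -0.46 to -0.27 among them. In the other, without replicate 1 of DMSO at 24 hours, *SMAD6* fell by more, at -0.69 (limma, adjusted p = 2.2e-07). The call of *ACVR1* was lost without replicate 2 of DMSO at 24 hours (-0.18) or replicate 2 (-0.16) or 3 (-0.16) of DMSO at 48 hours. That of *BMPR2* was lost without replicate 2 of DMSO at 24 hours (0.18) or replicate 1 (0.17), 2 (0.18) or 3 (0.18) of DMSO at 48 hours.

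In AZD5153, 7 of the 10 genes were called between 24 and 48 hours and all 7 were lower, against 29.7% of all genes (15.8% higher and 13.8% lower). For 7 genes the libraries of the times did not overlap (47.2% of all genes). The 4 ID genes all fell, *ID1* by 1.92-fold (adjusted p = 1.3e-05, limma), *ID2* by 1.55-fold (adjusted p = 0.00015, limma), *ID3* by 1.70-fold (adjusted p = 8.8e-05, limma) and *ID4* by 1.81-fold (adjusted p = 0.022, limma). *SMAD7* fell by 4.52-fold (log2 -2.18 ± 0.20, limma, adjusted p = 1.4e-06), *SMAD6* by 2.01-fold (limma, adjusted p = 0.00017) and *ACVR1* by 1.26-fold (log2 -0.34 ± 0.058, limma, adjusted p = 0.00043). The call of *ID4* was lost when any 1 of the 6 AZD5153 libraries was left out, with values between -0.87 and -0.83 in those fits. *BMPR1A* (-0.15 to 0.19), *BMPR2* (-0.13 to 0.13) and *BMP4* (-0.35 to 2.14) were not called, and the 95% intervals of their log2 changes are given in brackets. *BMP4* thus allows a change of several-fold, while the receptor intervals are narrow.

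Of a list of 76 further genes of the pathway, written with earlier results of these data known, 48 passed the minimum mean of 10 normalized counts. At 24 hours 13 of them rose and 22 fell with AZD5153 (median log2 fold change -0.23), and at 48 hours 11 rose and 25 fell (median -0.40), beside a median of 0.00 over all genes at each time. The share called, 35 and 36 of 48, was near that of all genes, 68.5% and 67.0%. The groups of the list are given by role below. Of all genes tested, 33.9% were higher and 34.6% lower at 24 hours, and 33.1% and 33.9% at 48 hours. Each group holds few genes, so nothing is read from its counts.

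Of the ligands, 5 of 13 passed the minimum mean, of which 3 rose and 2 fell at 24 hours and 1 rose and 1 fell at 48 hours. *GDF5*, a BMP-type ligand of cartilage and joints, gave 161, 305 and 249.6 in DMSO and 6.70, 18.4 and 20.8 with AZD5153 at 24 hours. Its log2 fold change was -3.96 ± 0.36 at 24 hours and -3.86 ± 0.36 at 48 hours, and -3.30 and -3.21 with a pseudocount of 10. *BMP8B* rose 2.34-fold and 2.82-fold, from a DMSO mean of 54.4 ± 22.0 normalized counts (SD, n = 3) at 24 hours. *BMP5*, *BMP7*, *BMP10*, *BMP15* and *GDF2* were listed at 0 in every library.

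Of the other receptors and co-receptors, 6 of 8 were tested, with 1 higher and 4 lower at each time. *ACVRL1*, a type I receptor best known from endothelium, gave 167, 182 and 235 in DMSO and 12.1, 3.07 and 3.67 with AZD5153 at 24 hours. The later libraries had 295, 322 and 221 and 7.29, 5.43 and 6.85, so no AZD5153 library exceeded 12.1. *BMPR1B*, another type I receptor for BMPs, fell by 2.00-fold at 24 hours and 2.90-fold at 48 hours, and the type II receptor *ACVR2B* by 2.03-fold and 2.13-fold. Of 7 markers of endothelium 5 were tested, and *PECAM1*, *VWF*, *TIE1* and *ERG* were lower at both times, while *KDR* was higher at 24 hours and not called at 48 hours. Their summed level was 624 to 723 normalized counts in DMSO and 192 to 218 in AZD5153 at 24 hours, and 925 to 968 and 175 to 193 at 48 hours. The defining marker *CDH5* was at 0 in every library. The part of these markers in the fall of *ACVRL1* was not tested.

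Of the 4 SMADs that carry the signal, *SMAD1* fell at both times, from 335 ± 8.77 to 145 ± 22.1 normalized counts (mean ± SD, n = 3) at 24 hours and from 317 ± 16.9 to 171 ± 8.31 at 48 hours. In all, 0 of the 4 rose and 1 fell at 24 hours, and 1 rose and 2 fell at 48 hours. All 9 intracellular inhibitors of the pathway were tested, of which 5 rose and 1 fell at 24 hours and 6 rose and 2 fell at 48 hours. *BAMBI*, a decoy receptor that lacks kinase activity and is itself induced by BMP, gave 84.5, 97.5 and 95.4 in DMSO and 452, 479 and 458 with AZD5153 at 24 hours. At 48 hours it gave 90.1, 89.5 and 91.8 and 313, 343 and 312. It thus rose 4.97-fold and 3.54-fold. The SMAD co-repressor *SKI* rose 2.28-fold and 2.34-fold, and *TOB1* 1.58-fold and 1.51-fold.

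Of the secreted BMP antagonists and modulators, 9 of 16 were tested, with 2 higher and 5 lower at 24 hours and 1 higher and 6 lower at 48 hours. *FST*, which binds activins and some BMPs, gave 160.1, 224 and 216 in DMSO and 18.8, 16.4 and 20.8 with AZD5153 at 24 hours. The 48-hour values were 101, 77.1 and 78.8 and 9.12, 6.52 and 11.1. *GREM1*, a direct BMP antagonist, fell by 2.47-fold and 2.81-fold, and *SOSTDC1*, another, by 3.35-fold and 4.85-fold from a DMSO mean of 53.7 ± 12.1 normalized counts at 24 hours. With a pseudocount of 10 the log2 value of *SOSTDC1* at 48 hours went from -2.28 to -1.62. *NOG*, *SOST* and *CER1* were listed at 0 in every library.

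Of 9 other genes known to be induced by BMP, 5 were tested, with 1 higher and 2 lower at 24 hours and 0 higher and 2 lower at 48 hours. *RUNX2*, an osteoblast factor, fell from 858 ± 49.3 to 239 ± 25.3 normalized counts at the earlier time and from 915 ± 84.1 to 325 ± 13.5 at 48 hours. *TMEM100*, a target of *ACVRL1* signalling in endothelium, fell from 237 ± 24.7 to 40.4 ± 18.9 and from 186 ± 14.2 to 69.3 ± 5.42. *MSX2* and *DLX5* were listed at 0. In the TGF-beta branch, 1 of 6 genes rose and 3 fell at 24 hours, and 1 rose and 4 fell at 48 hours. *SMAD3* fell by 2.25-fold and 2.09-fold and *TGFBR1* by 1.36-fold and 1.53-fold, and *ACVR1C* rose 1.85-fold and 1.88-fold.

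The 3 E protein genes, whose products ID proteins bind, all fell at both times. *TCF3* gave 1805, 2511 and 2876 in DMSO and 1207, 1260.4 and 1110.1 in AZD5153 at 24 hours, and 2591, 2537 and 2331 and 1141, 1115 and 1066 at 48 hours. *TCF4* gave 1009.9, 1024 and 1006 and 467, 528 and 528 at 24 hours, and 1084, 1098 and 1065 and 574, 624 and 555 at 48 hours. *TCF12* gave 3690.2, 2945 and 2864 and 1357, 1334 and 1487 at 24 hours, and 2635, 2729.6 and 2729.6 and 1260.2, 1151 and 1287 at 48 hours. Of all genes tested 34.6% fell at 24 hours and 33.9% at 48 hours. No AZD5153 library of these genes overlapped a DMSO library of the same time, as for 68.8% and 74.7% of all genes, and the falls lay between 1.85-fold (*TCF4* at 48 hours) and 2.26-fold (*TCF12* at 24 hours). Of the bHLH factors of the neural lineage, *OLIG1*, *OLIG2*, *NEUROD1*, *NEUROG2* and *HES5* were listed at 0 in every library, and 1 gene passed the minimum mean and was tested. That gene, *HES1*, a Notch target that holds back neural differentiation, fell at both times, from 149 ± 19.6 to 15.3 ± 5.48 normalized counts at the earlier time and from 220.0 ± 30.4 to 1.98 ± 1.21 at 48 hours.

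**Figure D5:**
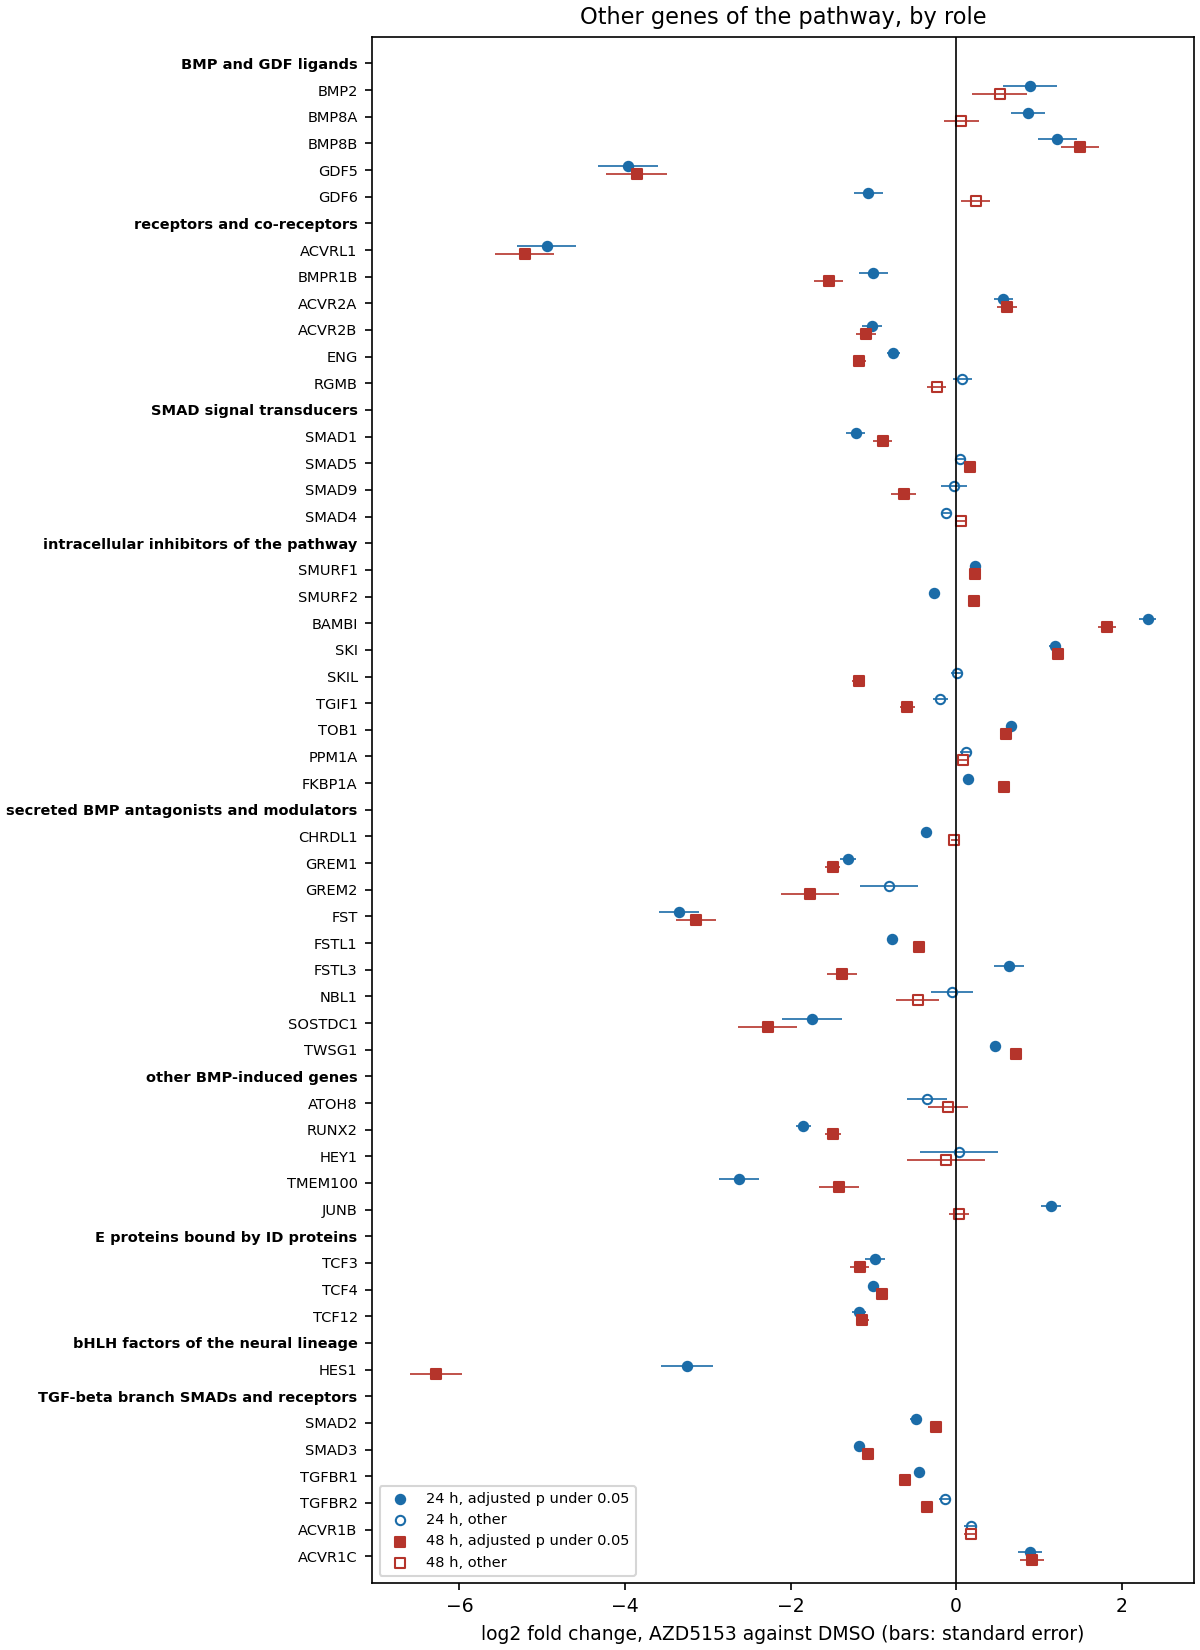
Log2 fold change of AZD5153 against DMSO (horizontal axis) at 24 hours (circles) and 48 hours (squares) for the 48 tested genes of the pathway list, by role; bars are standard errors, and filled symbols have an adjusted p-value under 0.05. The 3 E proteins lie to the left of 0 at both times, *ACVRL1* has the most negative value at 24 hours and *HES1* at 48 hours, and *BAMBI* has the highest at both.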

How the data were processed

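RNA-Seq of SF8628 cells was used, with 3 libraries for each of DMSO and AZD5153 at 24 and 48 hours. Per the labels the authors aligned reads to hg38 with STAR, counted them with HTSeq and scaled them with DESeq2; versions, annotation and strand setting are not given in the sources used here. The deposited values are a signal, namely normalized counts per gene (reads divided by a size factor per library). The same deposited table holds the authors' own comparison of treatments, with its mean level, log2 fold changes and their errors, a test score, p-values and adjusted p-values, and none of these was used. Multiplied by the size factor of the library, 100% of the values came out whole (tolerance 0.01), which recovered the reads, and each entry named a gene.

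Genes whose mean reached 10 normalized counts (15599) were taken as log2(normalized count + 1) and fitted with limma 3.58.1 (R 4.3.3, eBayes with trend, 8 residual degrees of freedom, Benjamini-Hochberg adjustment at 0.05) in 1 group means model of the 4 groups. On the recovered reads, edgeR 4.0.16 called 10692 genes at 24 hours and 10577 at 48 hours, and DESeq2 1.42.0 called 10607 and 10507, against 10679 and 10453 for limma. No pair of replicates was within sampling noise (the chi-square divided by its degrees of freedom was 2.09 to 22.9).

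The members and all gene lists were chosen with earlier results of these data known. All members are named. Of the pathway list, the text names by role up to 3 genes with the largest mean log2 fold change over both times among those called at both times in the same direction, and genes listed at 0. One gene of the list is not reported here by name. Other genes are named because their effect differed between the times or were chosen after their values were seen. TPM used the exon lengths of GENCODE 44. The replicate numbers were not taken as pairs, since deviations of libraries with the same number correlated between -0.15 and 0.036 (median 0.0056 over 18 pairs). The steps were tested on simulated data. Alternatives were tried for the pseudocount, the minimum mean, the scaling, the count model, the variance trend, the groups fitted, a replicate block and each library left out.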

Additional observations from a re-analysis of the deposited data

Results flagged for a closer look

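The effect of AZD5153 at 48 hours differed from that at 24 hours for 2 of the 10 genes and for 13 of the 48 tested genes of the pathway list, tested as the difference itself by limma with adjustment over all genes. Of all genes tested 24.5% differed, so the share of the pathway list was near that of all genes. For the 10 genes the count was higher with quantile normalization and with DESeq2, as given under the processing. The alternatives for the pathway genes were chosen after seeing the data. For the members, the difference on the log2 scale was -1.24 for *ID3* (limma, adjusted p = 4.5e-05) and -2.09 for *SMAD7* (limma, adjusted p = 0.00011).

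Of the pathway genes, *SKIL*, a SMAD co-repressor induced by TGF-beta, was not called at 24 hours and fell at 48 hours, a difference of -1.19 (limma, adjusted p = 1.8e-06). The follistatin-like *FSTL3* rose at 24 hours and fell at 48 hours, a difference of -2.03 (limma, adjusted p = 4.8e-05). *HES1* fell further at 48 hours, by -3.04 (limma, adjusted p = 0.00018). *JUNB* rose at 24 hours and was not called at 48 hours, a difference of -1.12 (limma, adjusted p = 0.00025). Lower effects at 48 hours were also found for *ENG* (-0.41, limma, adjusted p = 0.011), *BAMBI* (-0.49, limma, adjusted p = 0.027) and *TGIF1* (-0.40, limma, adjusted p = 0.030).

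The differences were toward a higher value at 48 hours for *GDF6* (1.29, limma, adjusted p = 0.0013), *TMEM100* (1.21, limma, adjusted p = 0.017), *SMURF2* (0.48, limma, adjusted p = 0.0013), *FKBP1A* (0.43, limma, adjusted p = 8.9e-05), *CHRDL1* (0.34, limma, adjusted p = 0.00068) and *FSTL1* (0.33, limma, adjusted p = 0.0055). *SMURF2*, a ubiquitin ligase that acts on SMADs, was lower with AZD5153 at 24 hours and higher at 48 hours. Of these 13 pathway genes 3 lost the call under some alternative. *BAMBI* lost it with quantile normalization (-0.25) and without replicate 1 of DMSO at 24 hours (-0.43), replicate 2 of AZD5153 at 24 hours (-0.47) or replicate 1 (-0.47) or 3 (-0.47) of AZD5153 at 48 hours. *FSTL1* lost it with quantile normalization (0.17), which also lowered *FKBP1A* to 0.24 and *CHRDL1* to 0.19 without loss of the call. The difference of *HES1* was -1.59 with a pseudocount of 10 and kept its call. *TGIF1* lost it with no minimum mean and with the replicate block (-0.40 each), and without replicate 1 of AZD5153 at 24 hours (-0.33), replicate 1 (-0.39) or 3 (-0.36) of DMSO at 48 hours or replicate 1 of AZD5153 at 48 hours (-0.34).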

How the results depend on the processing

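Of 50 results for the 10 genes, 32 were called, and 26 of these kept their call and direction under every alternative run. The other 6 lost the call in at least 1 of them and none reversed. They were *SMAD6* and *BMP4* with AZD5153 at 24 hours, *ACVR1*, *BMPR2* and *SMAD6* over time in DMSO, and *ID4* over time in AZD5153. Besides leaving out libraries, *SMAD6* at 24 hours lost its call with equal totals (0.30), without the variance trend (0.42) and with only the groups compared (0.42). Over time in DMSO, *ACVR1* lost it with no minimum mean (-0.18), equal totals (-0.12), quantile normalization (-0.11) and only the groups compared (-0.18), *BMPR2* with no minimum mean and without the variance trend (0.18 each), and *SMAD6* with equal totals (-0.36) and, at -0.42 each, with no minimum mean, without the variance trend, with only the groups compared and with the replicate block. *ID4* over time in AZD5153 lost it without the variance trend (-0.85). The number of the 10 genes whose effect differed between the times was 2, and it became 4 with quantile normalization, 5 with DESeq2 and 2 to 4 when each library was left out (4 without replicate 2 of DMSO at 24 hours). The number that changed over time in DMSO was 7, and it became 4 with no minimum mean and 4 to 7 when each library was left out (4 without replicate 2 or replicate 3 of DMSO at 48 hours). The cause of these shifts was not tested. The other counts stayed within 1.5 times. With a pseudocount of 10, *ACVRL1* was -3.68 at 24 hours and -4.11 at 48 hours, and at 48 hours *FST* was -2.34 and *HES1* was -4.26, all still called.

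The values that changed sign were all uncalled. The difference between times of *ID1* was 0.053 with quantile normalization and -0.17 to 0.12 when libraries were left out. *BMPR2* over time in AZD5153 was -0.013 with quantile normalization, -0.014 with edgeR and -0.056 to 0.055 when libraries were left out. When libraries were left out, *SMAD7* over time in DMSO was -0.29 to 0.019, the difference between times of *BMP4* was -0.11 to 1.09, and *BMP4* over time in DMSO was -0.17 to 0.76.

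Scaling to equal totals moved the median of all genes to -0.12 at 24 hours and -0.17 at 48 hours. It moved the split of calls at 48 hours from 5159 higher and 5294 lower to 3896 and 6511, that of the difference between times from 2254 and 1575 to 1760 and 1893, and that over time in DMSO from 2551 and 3015 to 3127 and 2440. With replicate number as a block, 9, 7, 2, 6 and 7 of the 10 genes were called in the 5 comparisons (9, 7, 2, 7 and 7 without it), the lost one being *SMAD6* over time in DMSO (-0.42). For *BMP4*, which has few reads, the intervals of the comparisons over time and of the difference between times span both no change and several-fold.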

Other observations

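Over the 12 libraries, the 2 protein-coding genes whose pattern was most like that of *ID3* were *SQSTM1* (Pearson r = 0.997) and *ADM* (0.996), among 10417 genes whose mean reached 100 normalized counts. *SQSTM1*, an autophagy receptor, rose by 2.69 at 24 hours and by 1.28 at 48 hours on the log2 scale, and *ADM*, a vasoactive peptide gene, by 2.59 and 1.44. For *ID1* the most alike were *LMNA* (0.998) and *TUBB4B* (0.997), and for *ID2* *EIF4A3* and *FARP2* (0.998 each), all with smaller changes than the ID gene. *ID4* was most like *DYNLL2* (0.992) and *STRAP* (0.991). For *SMAD7* they were *IGFN1* (0.966) and *RAP1GAP2* (0.965). The points share libraries and a large treatment effect, so these values are a description.

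The nearest tested protein-coding gene on either side of each ID gene was compared after its values were seen. *RPL11*, 132 kb from *ID3* (-0.026 and 0.062 on the log2 scale) and *RNF144B*, 1368 kb from *ID4* (-0.083 and 0.46) were called at neither time, and *RNF144A*, 1611 kb from *ID2*, was called at 48 hours only (-0.12 and -0.54). The others were called at both times. *BCL2L1*, 57.9 kb after *ID1*, had log2 values of -0.60 ± 0.12 (SE) at the earlier and -0.87 ± 0.12 at the later time. *E2F2*, 26.7 kb from *ID3*, had -4.59 ± 0.18 and -3.44 ± 0.18. *KIDINS220*, 36.6 kb from *ID2*, had 1.23 ± 0.059 and 1.10 ± 0.059, and *HM13*, 27.4 kb before *ID1*, had 0.37 ± 0.049 and 0.25 ± 0.049. *MBOAT1*, 257 kb from *ID4*, had -2.25 ± 0.27 and -1.80 ± 0.27.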
